A study of Homo sapiens with 24 samples.

Results

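The 37 genes described here are the glycolytic enzymes and the genes of the hypoxia response: 2 membrane transporters of glucose and lactate, 11 enzymes of the energy-investing steps of glycolysis, 6 enzymes of the energy-yielding steps, 4 genes that set the fate of pyruvate, 4 subunits or oxygen sensors of the hypoxia-inducible factors (HIF) and 10 HIF targets outside glycolysis. They were chosen by name from knowledge of both pathways, by a rule that uses no measured value but was written with earlier results of these data known, and are 37 of the 59609 gene symbols in the count table. Gene expression was measured by sequencing the 3′ ends of transcripts (QuantSeq, forward libraries) in MDA-MB-231 and MDA-MB-453, human breast cancer lines that lack the oestrogen receptor. Cells labelled wild-type were grown for 5 days with DMSO, the solvent control, with abemaciclib at 500 nM, an inhibitor of the cyclin-dependent kinases 4 and 6 that arrests the cell cycle, with fulvestrant at 5 nM, a drug that degrades the oestrogen receptor, or with both drugs (the combination). Each of the 8 groups held 3 libraries, which the study's methods describe as independent biological replicates. MDA-MB-231 was kept in RPMI-1640 and MDA-MB-453 in DMEM, both with fetal bovine serum, so that a difference between the lines and a difference between the media cannot be told apart, and each line stands for 1 tumour.

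Glycolysis splits glucose into pyruvate. Its first steps spend ATP to trap and phosphorylate the sugar, and its later steps return ATP and NADH. Pyruvate is then reduced to lactate by lactate dehydrogenase, which leaves the cell through monocarboxylate transporters, or enters mitochondria through pyruvate dehydrogenase, which the PDK kinases switch off. HIF-1 and HIF-2 are dimers whose alpha subunits, encoded by HIF1A and EPAS1, are hydroxylated by the EGLN prolyl hydroxylases when oxygen is present and are then degraded. When oxygen falls the alpha subunits accumulate and bind the hypoxia response element, with the core letters ACGTG or GCGTG, near genes for glycolysis, angiogenesis, pH control and mitophagy. Much of this control acts on the HIF proteins, which were not measured. The cultures carry no label for oxygen, glucose or lactate.

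The promoters of 5 members whose response to abemaciclib differed between the lines are shown, since they carry different numbers of this element. Each sequence is the 250 bases before a RefSeq transcription start on GRCh38.p14, read 5′ to 3′ on the strand of the gene, and capitals mark ACGTG or GCGTG on either strand (CACGT and CACGC on the strand shown). The windows are PGK1 at chrX:78103998-78104247 on the plus strand, BNIP3 at chr10:131981924-131982173 on the minus strand, LDHA at chr11:18394313-18394562 on the plus strand, PFKFB4 at chr3:48556804-48557053 on the minus strand and EPAS1 at chr2:46297157-46297406 on the plus strand.
PGK1: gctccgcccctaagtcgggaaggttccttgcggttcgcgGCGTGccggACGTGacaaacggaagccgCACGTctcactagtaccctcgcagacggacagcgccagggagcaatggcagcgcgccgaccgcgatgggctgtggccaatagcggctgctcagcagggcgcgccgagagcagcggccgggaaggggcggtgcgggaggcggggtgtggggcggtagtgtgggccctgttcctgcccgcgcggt
BNIP3: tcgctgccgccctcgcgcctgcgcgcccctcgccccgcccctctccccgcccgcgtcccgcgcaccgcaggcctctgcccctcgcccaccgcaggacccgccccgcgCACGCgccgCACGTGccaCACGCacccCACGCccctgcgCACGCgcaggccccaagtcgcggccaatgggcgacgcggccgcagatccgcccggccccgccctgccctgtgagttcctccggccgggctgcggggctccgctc
LDHA: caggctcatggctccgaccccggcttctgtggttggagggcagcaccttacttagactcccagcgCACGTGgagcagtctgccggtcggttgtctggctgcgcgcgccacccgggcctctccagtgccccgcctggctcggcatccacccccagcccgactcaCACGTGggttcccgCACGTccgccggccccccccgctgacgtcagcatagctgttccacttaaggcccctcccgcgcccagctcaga
PFKFB4: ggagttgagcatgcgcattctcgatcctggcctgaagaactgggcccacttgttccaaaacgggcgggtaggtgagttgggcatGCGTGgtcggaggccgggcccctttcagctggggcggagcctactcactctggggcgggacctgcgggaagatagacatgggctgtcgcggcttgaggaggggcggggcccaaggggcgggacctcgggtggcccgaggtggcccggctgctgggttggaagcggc
EPAS1: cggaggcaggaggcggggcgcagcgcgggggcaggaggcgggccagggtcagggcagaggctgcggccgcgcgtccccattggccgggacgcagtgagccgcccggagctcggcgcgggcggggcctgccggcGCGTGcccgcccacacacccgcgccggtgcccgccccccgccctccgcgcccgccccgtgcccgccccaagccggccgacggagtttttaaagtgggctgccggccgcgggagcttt
PGK1 held 2 matches to ACGTG and 1 to GCGTG, BNIP3 held 2 and 4, LDHA held 5 and 0, and PFKFB4 and EPAS1 held 0 and 1 each. A run of CACGTG reads as ACGTG on both strands, so it counts as 2 matches, and it is also the E-box bound by MYC and other factors. Windows were found for 34 of the 37 members (62 windows, since a gene can have several starts), and none for VEGFA, BNIP3L and NDRG1. ACGTG was present in 23 of the 62 member windows (37.1%), against 18.5% of the 35116 windows of all genes. GCGTG was present in 21 (33.9%), against 32.2% of all windows. Counted by gene, 20 of these 34 members had ACGTG in a window and 18 had GCGTG. The members were chosen by name as genes of these pathways, so an excess of the element may be built into the list. It was not tested. A match is a run of letters and not a measured binding site.

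Library totals ran from 2873558 to 4158762 counts, and levels are given as CPM, the counts of a gene relative to its library total, scaled by TMM (trimmed mean of M values). A gene with 0 counts is set against a floor of 3 counts summed over its group, which came to between 0.248 and 0.298 CPM. VIM, CD44 and AXL were expressed in MDA-MB-231 under DMSO (VIM at 1505 ± 156 CPM, mean ± SD, n = 3) and had 0 counts in every MDA-MB-453 library, whereas FOXA1, a luminal transcription factor gene, had a DMSO level of 196 ± 22.1 CPM in MDA-MB-453 and of 3.44 ± 1.99 CPM in MDA-MB-231. ESR1, the oestrogen receptor gene, had 0 counts in 21 of the 24 libraries. With abemaciclib the proliferation marker MKI67 fell from 505 to 184 CPM in MDA-MB-231 and from 283 to 1.77 CPM in MDA-MB-453. The share of counts from mitochondrially encoded genes moved with abemaciclib in both lines, from between 8.69% and 9.08% to between 11.1% and 13.2% in MDA-MB-231 and from between 14.8% and 16.0% to between 21.8% and 25.5% in MDA-MB-453. No member call for abemaciclib against DMSO was lost in either line when these genes were left out.

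Abemaciclib raised part of the set in MDA-MB-231 and lowered part of it in MDA-MB-453. Of the 34 members tested in MDA-MB-231, 11 were higher with abemaciclib than with DMSO and 3 were lower, where a call is an adjusted p below 0.05 (edgeR quasi-likelihood test, 2-sided, Benjamini-Hochberg over the whole table). Over all 11314 genes tested 33.7% were called, 16.9% higher and 16.9% lower, so that the members' share of 41.2% lay near that of all genes while their split leaned upwards. Of the 11, PFKFB4 and EPAS1 passed the filter on low counts only through the groups with abemaciclib and could be called only as higher. In MDA-MB-453, 3 of the 30 members tested were higher and 13 were lower (53.3%), against 36.0% of all 11080 genes tested, 16.6% higher and 19.4% lower. The median log2 fold change of the members tested was 0.19 for MDA-MB-231 but -0.44 for MDA-MB-453, and that of all genes was near 0 in both.

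**Figure D1:**
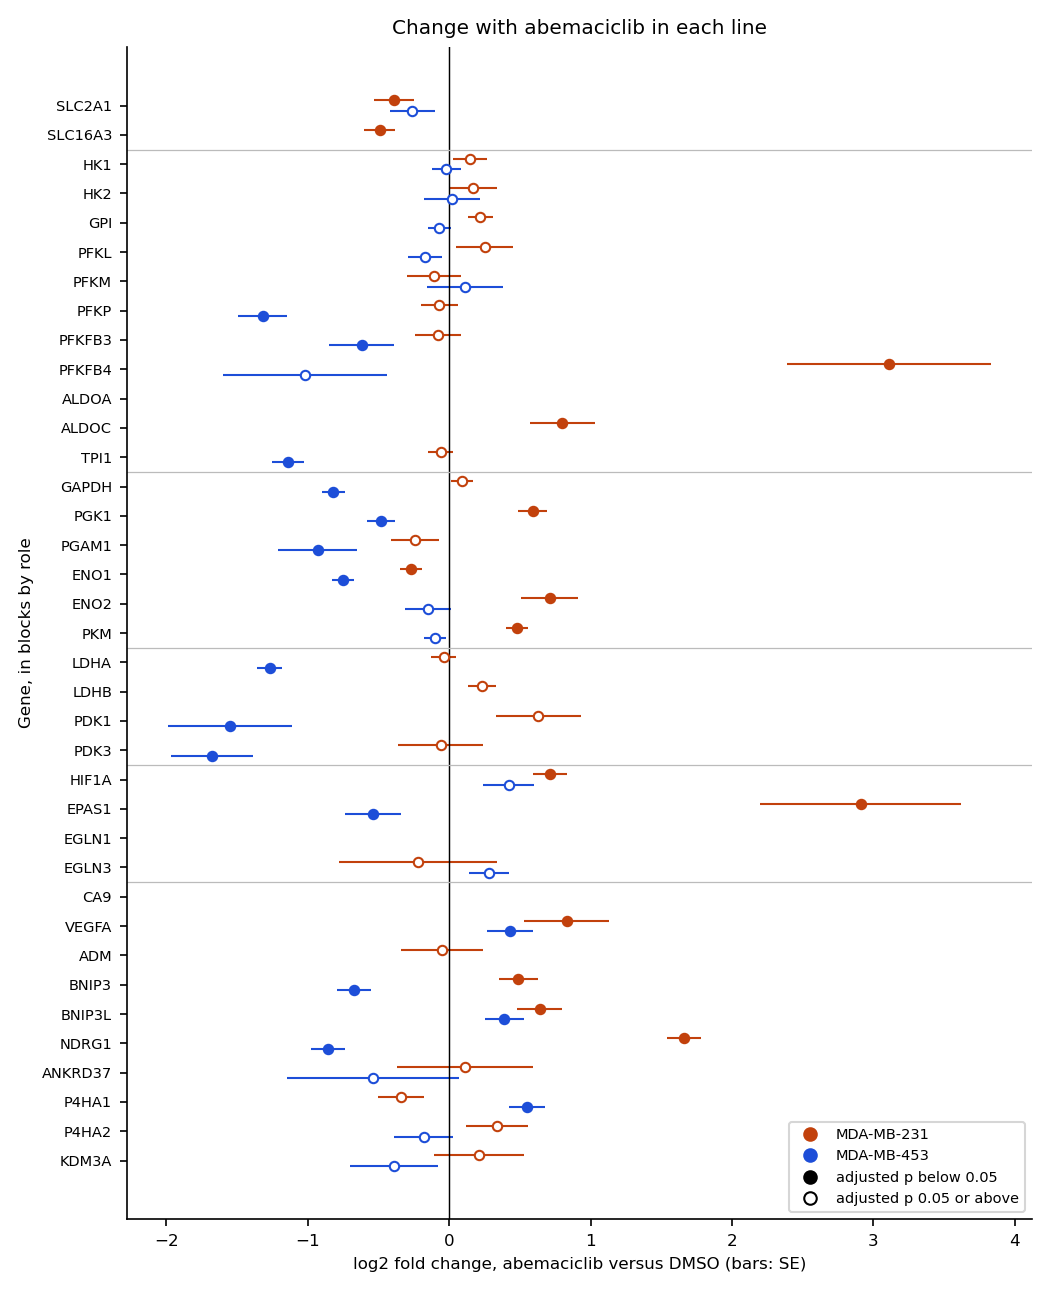
Log2 fold change of each member tested (34 in MDA-MB-231, 30 in MDA-MB-453) for abemaciclib against DMSO (horizontal axis, log2 units) in MDA-MB-231 and MDA-MB-453, ordered by role. Points are estimates, bars are standard errors, and filled points passed an adjusted p of 0.05. PFKFB4, EPAS1 and NDRG1 lay above 1.5 in MDA-MB-231, whereas PDK3, PDK1, PFKP, LDHA and TPI1, all called, and PFKFB4, not called, lay below -1 in MDA-MB-453.

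SLC2A1 and SLC16A3, which carry glucose in and lactate out, were the members with a called fall at the cell membrane. SLC16A3 (MCT4, a monocarboxylate transporter) stood at 202, 208 and 200.2 CPM under DMSO and at 147, 158 and 129.6 CPM with abemaciclib in MDA-MB-231, listing replicates 1, 2 and 3 in that order here and below. The groups did not overlap, and the gene fell by 0.49 on the log2 scale (SE 0.11, adjusted p = 0.000492). Its exons share 482 of 9236 bases with CSNK1D on the other strand, and CSNK1D rose from a mean of 52.1 to 82.5 CPM in the same groups. The strand used for counting is not given in the sources used here, and its part in the result was not tested. In MDA-MB-453 SLC16A3 was near its floor, with 5, 3 and 10 counts under DMSO and 0, 1 and 6 with abemaciclib, and did not pass the filter on low counts.

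SLC2A1 (GLUT1, the main glucose transporter of many tumour cells) stood at 75.3, 69.7 and 79.8 CPM under DMSO and at 53.2, 62.0 and 56.2 CPM with abemaciclib in MDA-MB-231. All 3 treated libraries lay below all 3 controls. It fell by 0.39 on the log2 scale (SE 0.14, adjusted p = 0.0242), a call that was lost without replicate 1 or 3 of DMSO, without replicate 1 or 3 of abemaciclib, or when low genes were kept. In MDA-MB-453 it was at 46.6 ± 7.47 CPM under DMSO and 39.1 ± 1.41 CPM with abemaciclib, with no call (log2 fold change -0.26, adjusted p = 0.225).

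In the energy-investing steps, 2 of 10 members tested rose in MDA-MB-231 and none fell (20.0% called, against 33.7% of all genes), and 3 of 9 fell in MDA-MB-453 and none rose (33.3%, against 36.0%), so that neither share lay above that of all genes. PFKFB4, one of the bifunctional enzymes that set the level of the phosphofructokinase activator fructose 2,6-bisphosphate, rose 8.63-fold in MDA-MB-231. Its counts there were 0, 3 and 3 under DMSO and 23, 14 and 20 with abemaciclib, or a mean of 0.582 ± 0.504 against 5.3 ± 1.13 CPM (log2 fold change 3.11, adjusted p = 0.00063). In MDA-MB-453, where it passed the filter only through the groups without abemaciclib, it stood at 3.26, 4.44 and 7.22 CPM under DMSO and 3.21, 3.01 and 1.0 CPM with abemaciclib. These groups did not overlap, yet the fall by 1.02 on the log2 scale carried an SE of 0.58 and an adjusted p of 0.177.

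ALDOC, an aldolase isoform best known from brain, stood at 13.4, 17.3 and 16.5 CPM under DMSO and at 25.6, 32.0 and 24.5 CPM with abemaciclib in MDA-MB-231, a rise by 1.74-fold (adjusted p = 0.00497). It was almost unread in MDA-MB-453, with 1 count over the DMSO libraries and 0 over the abemaciclib libraries.

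PFKP, the platelet-type phosphofructokinase that commits sugar to glycolysis, showed the largest called fall of these steps in MDA-MB-453. It stood at 74.0, 55.2 and 61.3 CPM under DMSO and at 27.0, 21.3 and 28.1 CPM with abemaciclib, 2.5-fold lower (log2 fold change -1.32, SE 0.17, adjusted p = 2e-08). In MDA-MB-231 it was at 113, 111 and 103 CPM under DMSO and 107, 100 and 104 CPM with abemaciclib, and the change was not called (log2 fold change -0.07, adjusted p = 0.712). The isoforms PFKL and PFKM were called in neither line, with log2 fold changes of 0.25 and -0.11 in MDA-MB-231 and of -0.17 and 0.11 in MDA-MB-453.

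TPI1, which interconverts the triose phosphates, lay between 223 and 249 CPM in the 3 DMSO libraries of MDA-MB-453 and at 117, 109 and 94.6 CPM with abemaciclib. No treated library came near a control, and the gene was 2.2-fold lower (log2 fold change -1.14, SE 0.11, adjusted p = 5.6e-12). In MDA-MB-231 the values were 506, 544 and 507 against 490.2, 529 and 473 CPM, overlapping and not called (adjusted p = 0.661).

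PFKFB3, the sister enzyme of PFKFB4, stood at 31.7, 27.2 and 19.4 CPM under DMSO and at 20.3, 15.6 and 14.7 CPM with abemaciclib in MDA-MB-453. These groups overlapped, and its fall by 0.62 on the log2 scale (adjusted p = 0.0295) lost its call without replicate 1 or 2 of DMSO, without replicate 2 or 3 of abemaciclib, or when low genes were kept. In MDA-MB-231 it was at 46.1 ± 6.46 and 43.6 ± 3.62 CPM. The hexokinases HK1 and HK2, which phosphorylate glucose, were called in neither line. GPI, the next enzyme, sat at the threshold in MDA-MB-231 (log2 fold change 0.22, adjusted p = 0.05) and was called there in 9 alternatives. In MDA-MB-453 its log2 fold change was -0.07 (adjusted p = 0.569).

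In the energy-yielding steps, 3 of 6 members rose and 1 fell in MDA-MB-231, and 4 of 6 fell and none rose in MDA-MB-453. The share called was 66.7% each time, above that of all genes (33.7% and 36.0%). PGK1 was the 1 energy-yielding enzyme called in opposite directions, ENO1 fell in both lines, and the other 4 were called in 1 line each. PGK1, which makes the first ATP of the pathway and lies at GRCh38 chrX:77910739-78129295, stood at 179, 210.4 and 176 CPM under DMSO and at 300.4, 287 and 262 CPM with abemaciclib in MDA-MB-231. In MDA-MB-453 it stood at 458, 379 and 436 CPM under DMSO and at 333, 304 and 279 CPM with abemaciclib. The groups did not overlap in either line. PGK1 rose 1.51-fold in MDA-MB-231 (log2 fold change 0.59, SE 0.10, adjusted p = 7.3e-06) and fell by 0.48 on the log2 scale in MDA-MB-453 (SE 0.10, adjusted p = 7.9e-05).

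PKM, the pyruvate kinase of most proliferating cells, stood at 1631, 1635 and 1556 CPM under DMSO and at 2212, 2250.1 and 2235 CPM with abemaciclib in MDA-MB-231, 1.39-fold higher (SE of the log2 fold change 0.08, adjusted p = 3.4e-06). In MDA-MB-453 the values were 745, 676 and 730.5 against 709, 672 and 635 CPM, which overlapped and were not called (adjusted p = 0.368). Reads at transcript ends do not separate the spliced PKM1 and PKM2 forms in a table of gene counts.

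ENO2, the enolase isoform of neurons, rose in MDA-MB-231 from 23.8, 23.0 and 22.7 CPM to 38.2, 41.8 and 33.5 CPM (1.64-fold, adjusted p = 0.00416). In MDA-MB-453 it read 51.2, 38.0 and 52.3 CPM under DMSO and 41.1, 42.4 and 44.4 CPM with abemaciclib, with no call. ENO1, the widely expressed enolase, was the only member called lower in both lines. It stood at 2283, 2326 and 2273 CPM under DMSO and at 1988, 2036 and 1665 CPM with abemaciclib in MDA-MB-231, a fall by 0.27 on the log2 scale (SE 0.08, adjusted p = 0.00528) that rested on abemaciclib replicate 3: without it the value was -0.19 and the call was lost. In MDA-MB-453 ENO1 stood at 1617, 1501 and 1748 CPM under DMSO and at 1005, 955 and 946 CPM with abemaciclib, 1.68-fold lower (log2 fold change -0.75, SE 0.08, adjusted p = 8.6e-11).

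GAPDH, which makes the NADH of the pathway and is often used as a loading control, was 1.77-fold lower with abemaciclib in MDA-MB-453. Its libraries there read 3021, 2790.1 and 3082 CPM under DMSO and 1736, 1781 and 1539 CPM with abemaciclib (log2 fold change -0.82, SE 0.08, adjusted p = 2.2e-12). In MDA-MB-231 they read 3766, 3607 and 3441 CPM under DMSO and 3671, 4479 and 3304 CPM with abemaciclib, with 1 treated library above and 1 below all controls and no call (adjusted p = 0.431). PGAM1, a phosphoglycerate mutase, stood at 20.4, 17.5 and 16.8 CPM under DMSO and at 9.88, 10.5 and 8.35 CPM with abemaciclib in MDA-MB-453 (1.9-fold lower, adjusted p = 0.00712). In MDA-MB-231 it was at 48.5 ± 3.88 and 40.8 ± 9.21 CPM, not called.

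Of the genes that set the fate of pyruvate, none of 4 was called in MDA-MB-231 and 3 of 3 tested were lower in MDA-MB-453. Set against 33.7% and 36.0% of all genes, the first share was below and the second above, both on few members. LDHA, the lactate dehydrogenase subunit that dominates in glycolytic tumours, lies at GRCh38 chr11:18394560-18408425. It stood at 923, 728 and 883 CPM under DMSO and at 346, 368 and 342 CPM with abemaciclib in MDA-MB-453, with every treated library far below every control. The gene was 2.41-fold lower (log2 fold change -1.27, SE 0.09, adjusted p = 1.8e-15). In MDA-MB-231 it read 652, 629 and 625 CPM under DMSO and 618, 630.2 and 597 CPM with abemaciclib, and the change was not called (log2 fold change -0.04, adjusted p = 0.75).

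LDHB, the subunit more common in oxidative tissue, was read well in MDA-MB-231, at 329, 340 and 279.7 CPM under DMSO and 371 ± 36.9 CPM with abemaciclib (log2 fold change 0.23, adjusted p = 0.0746). It had 0 counts in every MDA-MB-453 library.

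PDK1 and PDK3, kinases that shut pyruvate out of the mitochondrial dehydrogenase complex, both fell in MDA-MB-453. PDK3 stood at 21.0, 25.3 and 26.9 CPM under DMSO and at 8.28, 6.91 and 7.68 CPM with abemaciclib, 3.2-fold lower (log2 fold change -1.68, SE 0.29, adjusted p = 6.6e-06). PDK1 stood at 8.29, 12.5 and 7.8 CPM under DMSO and at 4.27, 3.31 and 2.0 CPM with abemaciclib, 2.93-fold lower (SE of the log2 fold change 0.44, adjusted p = 0.00476). In MDA-MB-231 the PDK1 values were 5.65, 10.7 and 13.2 CPM under DMSO and 20.1, 14.5 and 11.2 CPM with abemaciclib, which overlapped and were not called (log2 fold change 0.63, adjusted p = 0.1). PDK3 there was at 11.4 ± 1.35 and 10.9 ± 3.07 CPM.

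**Figure D2:**
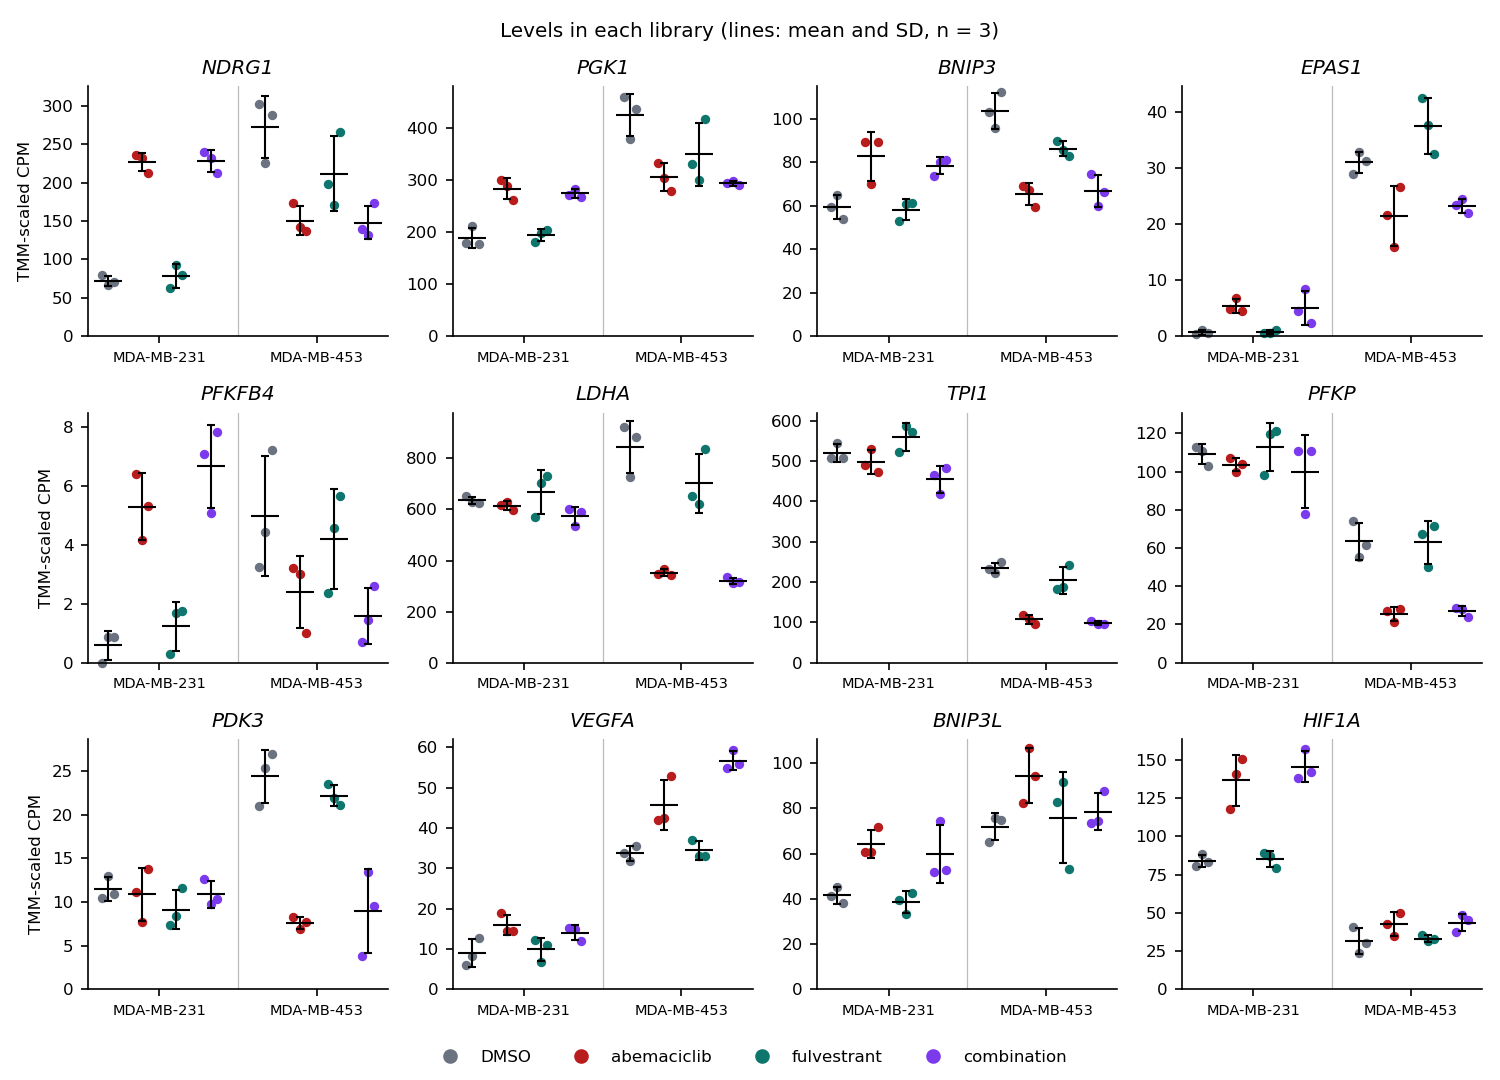
Levels of 12 members (vertical axes, CPM after TMM scaling) in each of the 24 libraries, by line and treatment. Points are libraries and bars are the mean ± SD of 3. NDRG1, PGK1 and BNIP3 rose in MDA-MB-231 and fell in MDA-MB-453 with abemaciclib, alone or with fulvestrant.

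Both HIF alpha subunit genes rose in MDA-MB-231. HIF1A stood at 80.6, 88.4 and 83.0 CPM under DMSO and at 118, 141 and 151 CPM with abemaciclib there, 1.63-fold higher (log2 fold change 0.71, SE 0.12, adjusted p = 5.7e-06). In MDA-MB-453 the values were 40.5, 23.9 and 30.3 against 43.0, 34.6 and 50.1 CPM, overlapping and above the threshold (log2 fold change 0.42, adjusted p = 0.0665).

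EPAS1, which encodes HIF-2 alpha and lies at GRCh38 chr2:46293667-46386697, was low in MDA-MB-231, with 1, 4 and 2 counts under DMSO and 17, 23 and 17 with abemaciclib. It was 7.52-fold higher on a mean of 5.36 ± 1.27 CPM (log2 fold change 2.91, SE 0.71, adjusted p = 0.00113), and like PFKFB4 it could be called in this line only as higher. In MDA-MB-453 EPAS1 stood at 29.0, 32.8 and 31.2 CPM under DMSO and at 21.6, 15.9 and 26.7 CPM with abemaciclib. These groups did not overlap, and the fall by 0.54 on the log2 scale (SE 0.20, adjusted p = 0.0305) lost its call without replicate 2 or 3 of DMSO, without replicate 1 or 2 of abemaciclib, when low genes were kept, or when no other groups entered the fit.

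EGLN3, an oxygen-sensing hydroxylase that is itself induced by HIF, was called in neither line (log2 fold change -0.22 and 0.28). EGLN1, the main hydroxylase that acts on HIF, had 4 counts in all 24 libraries and was not tested. In GENCODE 44 it shares 3004 of its 5381 exon bases (55.8%) with another annotated gene on its own strand. ALDOA, the aldolase of most cells, had 16 counts in all and shares 1639 of its 3829 exon bases (42.8%) in the same way. How reads that fit more than 1 gene were counted is not given in the sources used here, and the part of this overlap in the low counts was not tested. The table holds no usable value for either gene.

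Among the HIF targets outside glycolysis, 4 of 9 tested rose and none fell in MDA-MB-231, and 3 of 8 rose and 2 fell in MDA-MB-453. The shares called were 44.4% and 62.5%, against 33.7% and 36.0% of all genes. Rises alone made up 44.4% and 37.5% of the targets tested, against 16.9% and 16.6% of all genes. Falls made up 25.0% of the targets for MDA-MB-453, against 19.4% of all genes. NDRG1, a stress-induced gene long used as a marker of hypoxia, gave the clearest contrast. It stood at 79.2, 66.2 and 71.0 CPM under DMSO and at 236, 232 and 213 CPM with abemaciclib in MDA-MB-231, 3.16-fold higher (log2 fold change 1.66, SE 0.12, adjusted p = 1.3e-14). In MDA-MB-453 it stood at 303, 226 and 289 CPM under DMSO and at 173, 142 and 137 CPM with abemaciclib, 1.81-fold lower (log2 fold change -0.86, SE 0.12, adjusted p = 1.5e-07). The levels of the lines, well apart under DMSO, crossed under the drug.

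BNIP3, a mitophagy receptor at GRCh38 chr10:131967684-131981967, behaved likewise. It stood at 59.2, 64.8 and 53.6 CPM under DMSO and at 89.2, 69.7 and 89.2 CPM with abemaciclib in MDA-MB-231 (1.4-fold higher, adjusted p = 0.00444), and at 103, 95.5 and 112 against 68.9, 67.3 and 59.5 CPM in MDA-MB-453 (1.59-fold lower, adjusted p = 2.5e-05). Pseudogenes named after BNIP3 held 1080 counts, 16.8% of the gene's own 6430, and adding them kept the call in both lines. Its relative BNIP3L (NIX), also a mitophagy receptor, rose in both: from 41.4, 45.2 and 38.0 to 60.7, 60.8 and 71.6 CPM in MDA-MB-231 (1.56-fold, adjusted p = 0.00155), and from 65.1, 75.8 and 75.1 to 82.5, 107 and 94.2 CPM in MDA-MB-453 (1.31-fold, adjusted p = 0.0322). The call in MDA-MB-453 was lost without any 1 of the 3 DMSO libraries, without replicate 2 or 3 of abemaciclib, or with library totals in place of TMM.

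VEGFA, the chief angiogenic growth factor, rose in both lines. It stood at 5.95, 8.35 and 12.7 CPM under DMSO and at 18.9, 14.5 and 14.4 CPM with abemaciclib in MDA-MB-231 (1.78-fold, adjusted p = 0.028), a call lost without replicate 1 or 2 of DMSO or replicate 1 of abemaciclib. In MDA-MB-453 it stood at 33.7, 31.9 and 35.5 against 41.9, 42.4 and 52.8 CPM (1.35-fold, adjusted p = 0.0313), a call lost without replicate 1 or 2 of DMSO, without replicate 3 of abemaciclib, when low genes were kept, or with library totals in place of TMM. The groups did not overlap in either line, and the rise was of modest size in both.

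P4HA1, a collagen prolyl hydroxylase, was called higher in MDA-MB-453 and not in MDA-MB-231. It stood at 85.8, 60.5 and 64.4 CPM under DMSO and at 90.0, 117 and 103 CPM with abemaciclib there (1.46-fold, adjusted p = 0.00077). In MDA-MB-231 its values were 52.7, 52.4 and 62.7 against 35.9, 49.3 and 47.4 CPM, with every treated library below every control but no call (log2 fold change -0.34, adjusted p = 0.106). The hydroxylase P4HA2, the histone demethylase KDM3A and ANKRD37 were called in neither line, nor was ADM, which encodes the vasodilator adrenomedullin, in MDA-MB-231 (log2 fold change -0.05).

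CA9, which encodes the membrane carbonic anhydrase IX and is among the most widely used hypoxia markers, changed in opposite directions but at few counts. In MDA-MB-231 it had 0 counts in all 3 DMSO libraries and 13, 3 and 6 counts with abemaciclib, at least 7.0-fold higher against the floor of 3 counts over the group. In MDA-MB-453 it had 19, 8 and 36 counts under DMSO and 0 in all 3 abemaciclib libraries, at least 20.2-fold lower. CA9 did not pass the filter within either line. With no filter it was called in both (adjusted p = 0.00418 and 1.33e-06). Its exons share 571 of 1598 bases with ARHGEF39 on the other strand, whose mean fell with abemaciclib from 6.04 ± 2.28 to 3.16 ± 0.499 CPM in MDA-MB-231 and from 10.8 ± 2.38 to 1.27 ± 0.306 CPM in MDA-MB-453. The neighbour thus moved the same way as CA9 in MDA-MB-453 and the opposite way in MDA-MB-231, and its part in the counts was not tested.

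**Figure D3:**
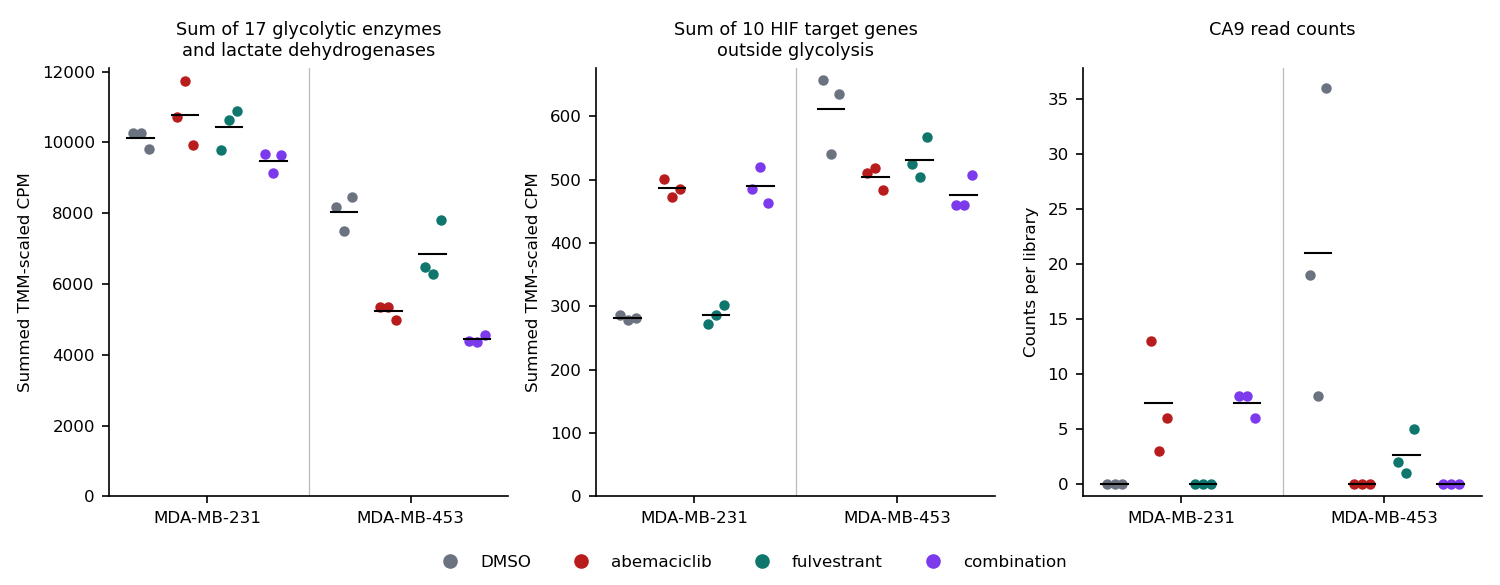
Summed level of 17 glycolytic enzymes and lactate dehydrogenases, summed level of the 10 HIF targets outside glycolysis (both in CPM) and counts of CA9 in each of the 24 libraries. Points are libraries and bars are the mean of 3. The summed enzymes lay between 7492 and 8446 CPM under DMSO and between 4980 and 5357 CPM with abemaciclib in MDA-MB-453.

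Summed over genes, the 17 glycolytic enzymes and lactate dehydrogenases went from 8037 ± 491 to 5225 ± 213 CPM with abemaciclib in MDA-MB-453, and from 10120 ± 264 to 10786 ± 912 CPM in MDA-MB-231. The libraries did not overlap in MDA-MB-453 and the SDs overlapped in MDA-MB-231. With both drugs, however, the enzyme sum of MDA-MB-231 dropped to 9476 ± 303 CPM. Its highest library there (9662) was below the lowest one under DMSO (9815) and under fulvestrant (9795). The enzyme sum of MDA-MB-453 under both drugs was 4443 ± 96.3 CPM. A lower enzyme sum was thus not confined to MDA-MB-453 once fulvestrant was added, but the enzymes of MDA-MB-231 did not fall together. From DMSO to both drugs, mean GAPDH there went from 3605 to 3064 CPM and ENO1 from 2294 to 1702 CPM. PKM went up from 1608 to 2053 CPM and PGK1 from 188 to 274 CPM. Of the 6 energy-yielding enzymes, 2 were called higher and 2 lower (33.3% each, against 17.0% and 18.3% of all genes). With abemaciclib alone, the 10 HIF targets went from 282 ± 3.52 to 487 ± 14.2 CPM in MDA-MB-231 and from 611 ± 62.0 to 504 ± 17.9 CPM in MDA-MB-453. NDRG1 carried most of the first change and more than all of the second: the other 9 targets, summed after the values were seen, went from 210 ± 3.06 to 259 ± 17.0 CPM in MDA-MB-231 and from 338 ± 21.2 to 353 ± 19.9 CPM in MDA-MB-453, where the libraries overlapped. These are shares of the counted transcripts of bulk cultures, in which fewer transcripts per cell and more of other transcripts cannot be told apart.

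The difference between the lines was tested directly, in a fit of all 24 libraries, by subtracting the log2 fold change in MDA-MB-231 from the one in MDA-MB-453. Of 35 members tested, 15 had a lower and 1 a higher effect in MDA-MB-453, or 45.7%, against 20.7% of all 12750 genes tested (7.72% higher and 13.0% lower). Their median difference was -0.6 log2 units, against -0.07 for all genes. The negative differences took in 5 of the 6 energy-yielding enzymes (GAPDH, PGK1, ENO1, ENO2 and PKM), LDHA, PDK1 and PDK3 of the pyruvate genes, PFKP, PFKFB4 and TPI1 of the investing steps, EPAS1, and CA9, BNIP3 and NDRG1 of the HIF targets. P4HA1 alone differed the other way. PFKFB4 and CA9 passed the filter on low counts through libraries with abemaciclib in MDA-MB-231 and, but for 1, without it in MDA-MB-453. Their negative sign here was thus largely set by the filter, and both are counted in the 15.

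NDRG1 had the smallest adjusted p of these, with a difference of -2.51 (SE 0.19, adjusted p = 8.8e-15), followed by LDHA at -1.22 (SE 0.14, adjusted p = 1.1e-09). The largest sizes with counts in every group were those of PFKFB4 (-4.12, SE 0.91) and EPAS1 (-3.44, SE 0.58), both set by low counts in MDA-MB-231. GAPDH, called lower in MDA-MB-453 only, differed by -0.90 (SE 0.12, adjusted p = 4.3e-08), and PKM, called higher in MDA-MB-231 only, by -0.57 (SE 0.11, adjusted p = 0.00014). For HIF1A (-0.28, adjusted p = 0.413), VEGFA (-0.39, adjusted p = 0.436) and BNIP3L (-0.24) the difference was not called, which does not show that the lines responded alike.

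Across the 30 members tested in both lines, PGK1, EPAS1, BNIP3 and NDRG1 were called higher in MDA-MB-231 and lower in MDA-MB-453, VEGFA and BNIP3L higher in both and ENO1 lower in both. A further 8 (PFKP, PFKFB3, TPI1, GAPDH, PGAM1, LDHA, PDK1 and PDK3) were called lower in MDA-MB-453 only, and 4 (PFKFB4, ENO2, PKM and HIF1A) higher in MDA-MB-231 only. Owing to the filter on low counts, EPAS1 and PFKFB4 could be called in MDA-MB-231 only as higher. The estimate was larger in MDA-MB-231 for 26 of the 30.

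Under DMSO the lines already differed in most members. Of 35 tested, 17 were higher and 14 lower in MDA-MB-453 (88.6%), against 69.8% of all genes (34.3% higher and 35.6% lower), so that much of this share is shared with the whole transcriptome. The HIF side leaned to MDA-MB-453: EPAS1 stood at 31.0 ± 1.89 CPM there and 0.679 ± 0.434 CPM in MDA-MB-231, EGLN3 at 83.2 ± 10.7 and 3.41 ± 1.17 CPM, NDRG1 at 273 ± 40.8 and 72.1 ± 6.55 CPM, and VEGFA at 33.7 ± 1.81 and 8.99 ± 3.4 CPM. CA9 was at least 20.6-fold higher in MDA-MB-453. Among the 10 HIF targets outside glycolysis, 7 were called higher in MDA-MB-453 and 1 lower. These are 70.0% and 10.0%, against 34.3% and 35.6% of all genes. ADM went the other way, with 2 counts over the DMSO libraries of MDA-MB-453 and 140 over those of MDA-MB-231. The ratio was 71.5 (counting interval 19.4 to 596). HIF1A was also lower, at 31.6 ± 8.4 CPM in MDA-MB-453 and 84.0 ± 3.96 CPM in MDA-MB-231 (log2 fold change -1.41, adjusted p = 2.2e-11). The line rich in transcripts of HIF-2 alpha was thus the poorer in those of HIF-1 alpha.

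Isoforms were used differently as well. LDHB was at least 1101-fold lower in MDA-MB-453, where only LDHA was read among the lactate dehydrogenases of the set. ALDOC had 161 counts over the 3 MDA-MB-231 libraries and 1 over those of MDA-MB-453, a ratio of 164 (95% counting interval 29.1 to 6531). SLC16A3 was 116-fold lower in MDA-MB-453 (adjusted p = 3.6e-27). Of the phosphofructokinases, PFKL was 3.25-fold higher in MDA-MB-453 and PFKM 2.45-fold and PFKP 1.72-fold lower. HK1 was 1.85-fold higher there while HK2 was not called (adjusted p = 0.0913). PKM was 2.24-fold and TPI1 2.21-fold lower in MDA-MB-453, whereas PGK1 was 2.25-fold higher.

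**Figure D4:**
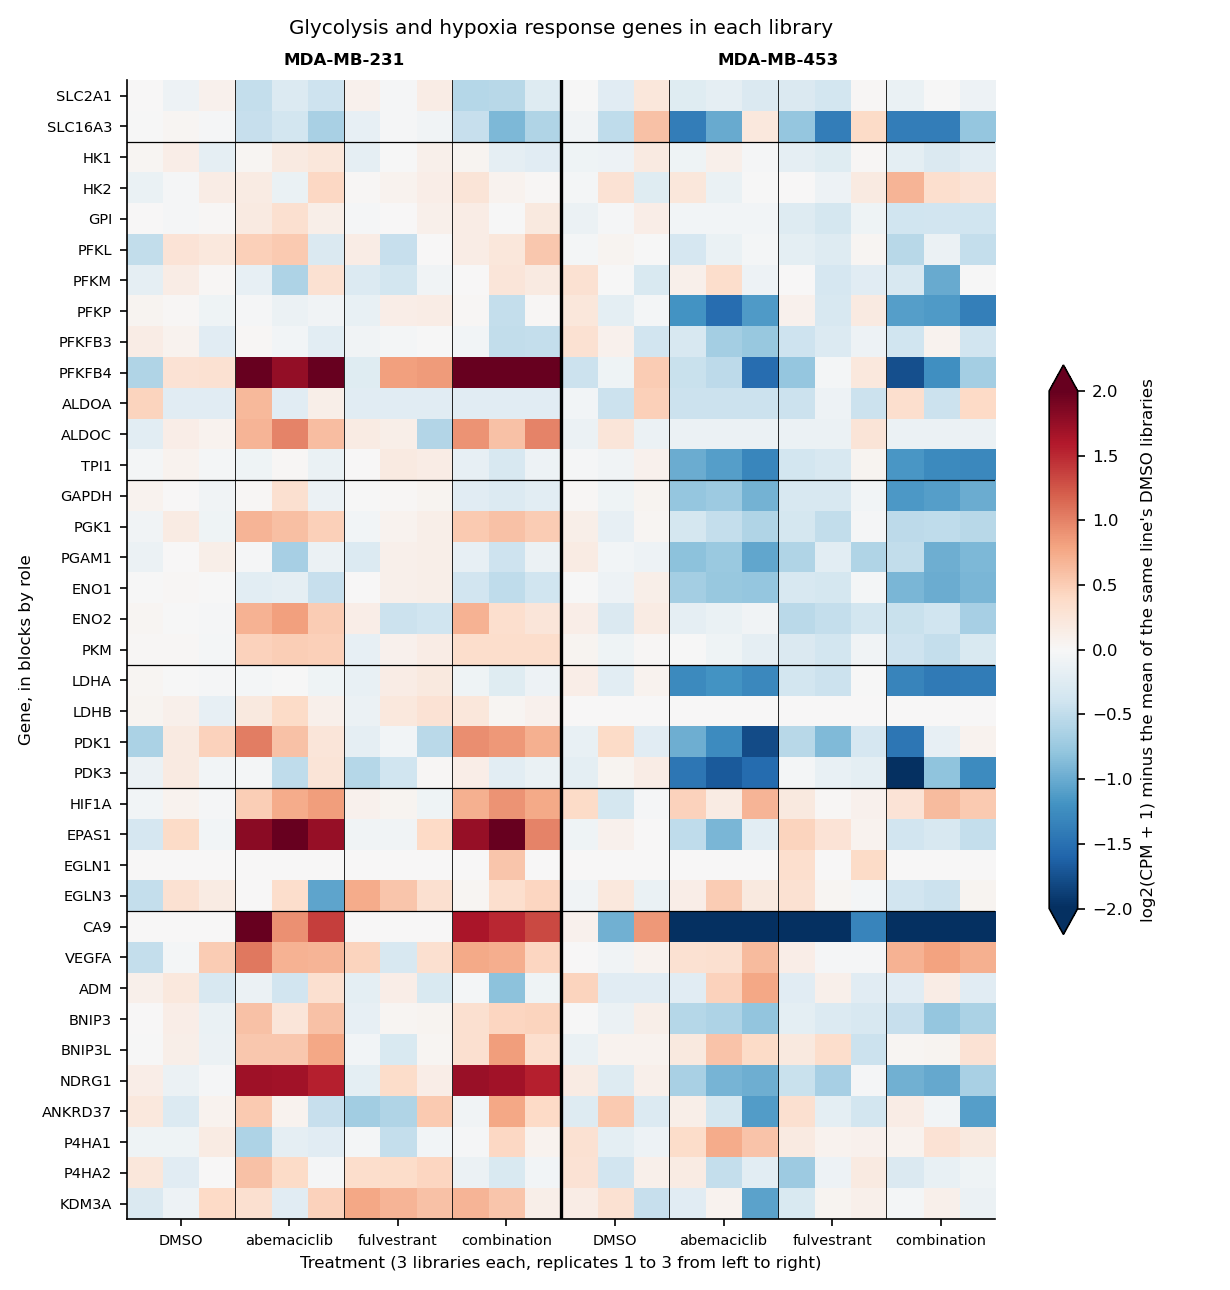
Log2(CPM + 1) of each of the 37 members (rows, by role) in each of the 24 libraries (columns), minus the mean of the DMSO libraries of the same line, with colours limited to ±2. The abemaciclib and combination columns look alike within a line, and rows such as NDRG1 and PGK1 change colour between the lines.

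Comparing the combination with fulvestrant gives the effect of abemaciclib in libraries that the first comparison did not use. In MDA-MB-231, 11 members were higher and 6 lower (50.0% of 34), against 36.1% of all genes (17.6% higher and 18.5% lower). Of the 14 members called for abemaciclib alone, 13 were called again in the same direction, which is 92.9% of the first list and 76.5% of the second, and the other one, VEGFA, kept its sign. Without PFKFB4 and EPAS1, which could be called only as higher in both comparisons, 11 of 12 were called again (91.7% of the first list and 73.3% of the second). NDRG1 rose by 1.55 log2 units here (adjusted p = 4.1e-14) and HIF1A by 0.78, and the fitted changes of PFKFB4 and EPAS1 were 2.41 (SE 0.62) and 2.69. GAPDH, TPI1 and P4HA2 were called lower and PDK1 higher (1.18, adjusted p = 0.00178) in this pair of groups and not in the first. GAPDH lost its call without fulvestrant replicate 3, TPI1 without combination replicate 2, and P4HA2 without any 1 of the 6 libraries compared, without DMSO replicate 3, which shares the fit, when low genes were kept or without the mitochondrial genes.

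In MDA-MB-453, 1 member was higher and 11 were lower (40.0% of 30), against 36.6% of all genes (17.2% higher and 19.4% lower). Here 11 of the first 16 were called again in the same direction (68.8% of the first list and 91.7% of the second). LDHA fell by 1.12 log2 units (adjusted p = 8.5e-14), PFKP by 1.22, PDK3 by 1.28, TPI1 by 1.05 and GAPDH by 0.85, while VEGFA rose by 0.72 (adjusted p = 0.00023). PFKFB3, PGAM1, PDK1, BNIP3L and P4HA1 were not called again. EGLN3 was the 1 new call, at -0.34 (adjusted p = 0.0482) against 0.28 for abemaciclib alone, and lost it without replicate 1 or 3 of DMSO, replicate 1 or 2 of fulvestrant or of the combination, with DESeq2, with the replicate block and without the mitochondrial genes. PFKFB3 and PDK1 did not keep their sign (0.04 and 0.27), and PDK1 stood at 6.0, 4.58 and 7.15 CPM with fulvestrant and 2.8, 8.18 and 9.83 CPM with the combination. PGK1 was called at -0.25 (adjusted p = 0.0403) but not without fulvestrant replicate 3, where it was -0.11, without any 1 of the combination libraries, or with DESeq2.

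**Figure D5:**
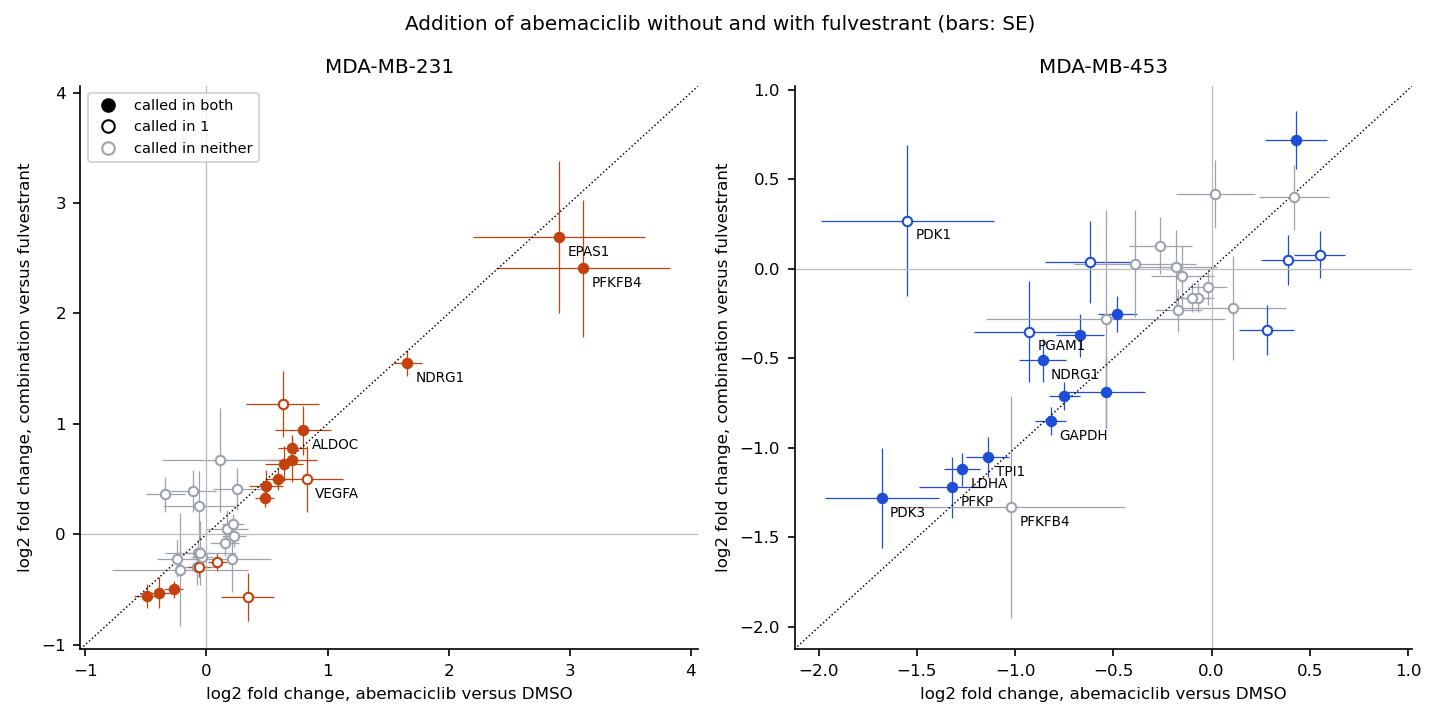
Log2 fold change of each tested member for abemaciclib against DMSO (horizontal axis) and for the combination against fulvestrant (vertical axis), which share no library, in each line. Filled points were called in both, and the line marks equal values. NDRG1 lay at 1.66 and 1.55 in MDA-MB-231 and at -0.86 and -0.51 in MDA-MB-453.

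The combination against DMSO gave 10 members higher and 4 lower in MDA-MB-231 (41.2%, against 35.4% of all genes, 17.0% higher and 18.3% lower) and, in MDA-MB-453, 15 lower and 2 higher (56.7%, against 37.6%, 17.6% higher and 20.0% lower). It shares the DMSO libraries with the first comparison. Owing to the filter on low counts, PFKFB4 and EPAS1 could again be called only as higher in MDA-MB-231, and PFKFB4 only as lower in MDA-MB-453. All 6 energy-yielding enzymes were lower in MDA-MB-453 with both drugs, among them PKM (-0.39) and ENO2 (-0.52), which abemaciclib alone did not bring past the threshold. LDHA stood at 335, 313 and 317 CPM there (log2 fold change -1.38, adjusted p = 1.2e-16) and VEGFA at 54.9, 59.3 and 55.9 CPM (0.76, adjusted p = 0.00011). In MDA-MB-231 NDRG1 stood at 240.5, 232 and 213 CPM (1.67, adjusted p = 7.9e-15), SLC16A3 fell by 0.64 and PDK1 rose by 0.83 (adjusted p = 0.0246). CA9 had 8, 8 and 6 counts with both drugs in MDA-MB-231 and 0 in all 3 libraries of MDA-MB-453.

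Fulvestrant alone called no member in either line. In MDA-MB-231 0 of 34 members were called (0% of all genes) and 1, KDM3A (log2 fold change 0.71), had an unadjusted p below 0.05, against 799 of all genes. DESeq2 likewise called 0 members there. In MDA-MB-453 0 of 30 were called, against 1.41% of all genes (1.01% higher and 0.397% lower), and 9 had an unadjusted p below 0.05, against 1504 of all genes. All 9 estimates were negative, from -0.21 for GAPDH to -0.48 for ENO2, and the smallest adjusted p was that of NDRG1 (-0.36, adjusted p = 0.13). DESeq2 called 1 member, PKM.

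This count depended on 1 library. NDRG1 read 199, 171 and 266 CPM with fulvestrant in MDA-MB-453, against 303, 226 and 289 CPM under DMSO, LDHA read 651, 622 and 835 against 923, 728 and 883 CPM, and PGK1 read 329.7, 300.3 and 417 against 458, 379 and 436 CPM. Fulvestrant replicate 3 was the highest of its group for each. Without it 9 members were called lower, namely GPI, TPI1, GAPDH, PGK1, ENO1, PKM, LDHA, NDRG1 and CA9, and the calls over all genes went from 156 to 786. LDHA was then at -0.39 (adjusted p = 0.00106), NDRG1 at -0.54 (adjusted p = 0.000857) and PGK1 at -0.41 (adjusted p = 0.00127). CA9 read 2, 1 and 5 counts with fulvestrant against 19, 8 and 36 under DMSO. It was not tested in the full fit. In MDA-MB-453 it reached the filter's level in 2 libraries, both under DMSO, and so could be called only as lower. It was called as well with no filter, and without abemaciclib replicate 1, 2 or 3, which the comparison does not use. It was tested but not called without DMSO replicate 2, fulvestrant replicate 1 or 2, or any 1 of the combination libraries. Its call therefore came and went with the library left out, and not with fulvestrant replicate 3 alone.

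Adding fulvestrant to abemaciclib changed few members. In MDA-MB-231 0 of 34 were called for the combination against abemaciclib, against 0.0265% of all genes (0.00884% higher and 0.0177% lower), with 4 members and 1148 genes at an unadjusted p below 0.05. GAPDH had the smallest adjusted p (-0.32, adjusted p = 0.109) and was the 1 member that DESeq2 called. In MDA-MB-453 3 of 30 were lower (10.0%), against 2.46% of all genes (1.25% higher and 1.21% lower): GPI (-0.32, adjusted p = 0.0195), PKM (-0.29, adjusted p = 0.0462) and EGLN3 (-0.51, adjusted p = 0.0325). GPI read a mean of 678 ± 0.967 CPM with abemaciclib and 536 ± 6.37 CPM with both drugs. All 3 calls were lost without replicate 2 or 3 of abemaciclib or replicate 1 or 2 of the combination, and 2 were lost without combination replicate 3. GAPDH was called in their place without abemaciclib replicate 3 (-0.31, adjusted p = 0.0453).

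The interaction, the combination effect minus the sum of both single effects, called no member in MDA-MB-231 (0.124% of all genes, 0.106% higher and 0.0177% lower, with 4 members and 1298 genes at an unadjusted p below 0.05) or in MDA-MB-453 (3.80% of all genes, 1.13% higher and 2.67% lower, with 5 members at an unadjusted p below 0.05). In MDA-MB-453 EGLN3 came nearest (-0.62, adjusted p = 0.059), at 83.2 ± 10.7 CPM under DMSO, 101 ± 15.0 with abemaciclib, 89.0 ± 11.2 with fulvestrant and 70.1 ± 13.5 with both, and PDK1 was next (1.82, adjusted p = 0.0874). DESeq2 called 0 members in MDA-MB-231 and 1, EGLN3, in MDA-MB-453.

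Genes of neighbouring pathways, in 4 lists, were counted in the same fits, in which abemaciclib against DMSO called 33.7% of all genes for MDA-MB-231 and 36.0% for MDA-MB-453. Of 42 other HIF targets, 36 were tested in MDA-MB-231, of which 13 rose and 4 fell (47.2% called, median log2 fold change 0.36), and 33 in MDA-MB-453, of which 6 rose and 8 fell (42.4%, median 0.02). The difference between lines was called for 3 higher and 12 lower of 41 tested (36.6%, median -0.47). Over all genes it was called for 20.7%, 7.72% higher and 13.0% lower. In MDA-MB-231 the largest rise was that of DDIT4, a stress-induced inhibitor of mTORC1, from a mean of 4.68 to 23.5 CPM (log2 fold change 2.32, adjusted p = 3.5e-08), and the largest fall that of HMOX1, which encodes a haem oxygenase, from 13.5 to 3.87 CPM (log2 fold change -1.8, adjusted p = 0.00112). In MDA-MB-453 TXNIP, an inhibitor of glucose uptake, rose from 103 to 266 CPM, and PLOD2, a collagen lysyl hydroxylase, went from 24.1 to 3.26 CPM (log2 fold change -2.87, adjusted p = 6.7e-09).

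Of 29 further genes of glycolysis and gluconeogenesis, 3 of 12 tested rose and none fell in MDA-MB-231 (25.0%), and 3 of 15 rose and 2 fell in MDA-MB-453 (33.3%), both below the share of all genes. PGM1, which links glycogen to glycolysis, followed the pattern of PGK1: it went from 29.1 to 64.0 CPM in MDA-MB-231 (adjusted p = 3.4e-07) and from 41.1 to 17.1 CPM in MDA-MB-453 (adjusted p = 4.6e-05). The largest rise in MDA-MB-453 was that of TIGAR, a phosphatase that lowers fructose 2,6-bisphosphate (log2 fold change 0.9, adjusted p = 0.0312). Of 12 genes of pyruvate entry into mitochondria, 1 of 11 rose and none fell in MDA-MB-231 (9.09%), PDHA1 at 0.35. In MDA-MB-453 1 rose and 4 fell (45.5%), with PDP2 at 0.69 and PDK2 at -0.97. Of 14 further genes that control HIF, 2 of 12 rose and 1 fell in MDA-MB-231 (25.0%) and 3 of 11 rose and 3 fell in MDA-MB-453 (54.5%). OS9, which binds HIF-1 alpha, rose in both (log2 fold change 0.65 and 0.76). ELOC in MDA-MB-231 (-0.51) and RBX1 in MDA-MB-453 (-0.61), both subunits of the ubiquitin ligase that acts on HIF alpha, had the largest falls.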

How the data were processed

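RNA was extracted from cell pellets, and QuantSeq 3′ FWD libraries were sequenced as 100 bp single-end reads. Adapters and poor reads were removed with BBDuk, STAR placed the rest on hg38, and featureCounts assigned them to GENCODE genes, per the labels and the study's methods. The authors deposited raw gene counts, whole numbers with no normalization. The strand setting and the handling of multi-mapping reads, duplicates and molecular identifiers are not given in the sources used here, so counting intervals and floors cover counting error only. The 1 line of the table that names no gene held 0 counts.

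The counts were tested with edgeR 4.0.16 in R 4.3.3 (filterByExpr, TMM, glmQLFit and glmQLFTest). Each line was fitted on its 12 libraries, and comparisons between lines on all 24. Genes with an adjusted p below 0.05 over all genes tested were called (Benjamini-Hochberg, 2-sided), in 14 comparisons. SE is the log2 fold change divided by the root of the F statistic. Levels are TMM-scaled CPM. In simulated data, 200 well-read genes per fit were given a true change of 1 log2 unit. The tests recovered 81% of these 200 in MDA-MB-231 (10732 genes tested) and 75% in MDA-MB-453 (10627 tested). For the difference between lines they recovered 48.5% (12205 tested). Of the calls made, 4.71%, 1.96% and 5.83% were false, in that order. Recovery at low counts was not simulated. All other genes were left unchanged, whereas in the data abemaciclib called 33.7% of genes for MDA-MB-231 and 36.0% for MDA-MB-453. How the tests perform with so many changes was not simulated either. Replicate pairs differed by a chi-square per degree of freedom of 2.64 to 8.65, so no library was a copy of another.

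Positions and exon overlaps come from GENCODE 44 on GRCh38 and promoters from RefSeq on GRCh38.p14. The members and the lists of other pathway genes were chosen with earlier results of these data known. Members called for abemaciclib in either line, or for the difference between lines, are given per library. From each other list, the called gene with the largest change up and down in each line was eligible to be named, at a mean of at least 10 CPM in 1 group. A further list and 1 line marker are not reported here. The levels of genes that overlap a member were added after the members' values were seen. The alternatives were DESeq2 1.42.0, DESeq2 size factors, library totals without TMM, no filter on low counts, a replicate block, the table without mitochondrial genes, pseudogene counts added to their member, a fit of only the groups compared, and leaving out each library in turn.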

Additional observations from a re-analysis of the deposited data

Results flagged for a closer look

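The abemaciclib effect differed between the lines for 16 members, by a test of the difference itself (MDA-MB-453 minus MDA-MB-231, edgeR on 24 libraries, log2 units). In the order of the pathway the differences were -1.24 for PFKP, -4.12 for PFKFB4, -1.07 for TPI1, -0.90 for GAPDH, -1.06 for PGK1, -0.47 for ENO1, -0.85 for ENO2 and -0.57 for PKM. They were -1.22 for LDHA, -2.17 for PDK1, -1.61 for PDK3, -3.44 for EPAS1, -1.15 for BNIP3 and -2.51 for NDRG1, and 0.89 for P4HA1. The fitted value for CA9 was -13.33, which is set by groups with 0 counts and is no measure of size. The negative sign of CA9 and of PFKFB4 was largely set by the filter on low counts. None of these 16 lost its call in an alternative that was run, and 16 to 18 members were called when single libraries were left out.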

How the results depend on the processing

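No called member changed direction in any alternative. Over the members tested in each of the 14 comparisons, 8737 values stayed on their side of the threshold, 118 lost a call and 92 gained one. For the effects of abemaciclib on members, leaving out 1 library gave 12 to 16 called members for MDA-MB-231 and 13 to 17 for MDA-MB-453, and the combination gave 11 to 14 and 14 to 19 against DMSO and 15 to 19 and 10 to 13 against fulvestrant. The lines under DMSO gave 30 to 32. Counts over all genes for these comparisons ran from 3206 to 4087, 3412 to 4134, 3408 to 4285, 3549 to 4374, 3411 to 4156, 3418 to 4209 and 8543 to 9094 in the same order, and from 2316 to 2659 for the difference in abemaciclib effect.

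Counts near 0 moved most, and the cause was not tested. Over all genes, fulvestrant in MDA-MB-231 went from 0 to 14 with no filter, and from 0 to 205 without single libraries (205 without fulvestrant replicate 1), with 0 members throughout. Fulvestrant in MDA-MB-453 went from 156 to 294 genes with DESeq2, 246 with library totals and 269 with no filter, and from 5 to 786 without single libraries. Its members went from 0 to 1 with DESeq2, 2 with no filter and 0 to 9 without single libraries. The combination against abemaciclib in MDA-MB-231 went from 3 genes to 55 with DESeq2, 5 with DESeq2 size factors, 49 with no filter, 9 without mitochondrial genes, 7 with pseudogenes added and 30 with only the groups compared, and from 0 to 96 without single libraries. Its members went from 0 to 1 with DESeq2, to 1 with no filter and from 0 to 1 without abemaciclib replicate 3 or fulvestrant replicate 1. In MDA-MB-453 its 3 members went to 0 with library totals and from 0 to 4 without single libraries, and its genes from 83 to 518. The interaction in MDA-MB-231 went from 14 genes to 65 with DESeq2, 132 with no filter and 6 with the replicate block, and from 2 to 449 without single libraries, with 0 to 2 members. In MDA-MB-453 it gave 1 member with DESeq2, 1 with no filter and 0 to 3 without single libraries, and 191 to 873 genes.

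Same-numbered libraries did not deviate together (correlations of -0.09 to 0.0309), so no pairing by number was seen. Counting noise over all genes tested could hide a small shared effect, so pairing is not excluded. With the replicate block 14 members were called for abemaciclib in MDA-MB-231, 16 in MDA-MB-453 and 29 between the lines under DMSO, where GAPDH (-0.23) and KDM3A (0.41) lost their calls. EGLN3 lost its call in both MDA-MB-453 comparisons that had called it. Members under about 1 CPM in a group, among them PFKFB4, EPAS1 and CA9, rest on a few counts in that group.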
